A study of Arabidopsis thaliana with 12 samples.

Results

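Of 33560 annotated loci of Arabidopsis thaliana, 159 had a main transcript at 0 °C that differed from the one at 22 °C. The main transcript is the annotated transcript with the largest mean share of its gene's estimated counts. A share is that of 1 annotated transcript, and further transcripts of a gene may use the same splice site or retain the same intron. To be considered, a locus needed at least 2 annotated transcripts and at least 100 counts in each of the 6 libraries at 0 and 22 °C, which 4215 loci met. In a switching gene the transcript that led at 0 °C, called here the 0 °C transcript, gained at least 20 percentage points of its gene's counts over 22 °C, and its share was higher in each library at 0 °C than in each at 22 °C. The transcript that led at 22 °C is called the 22 °C transcript. These 159 genes were 3.77% of the 4215 considered. The genes were chosen by their shares at 0 and 22 °C, so those shares are given as a description, without a test.

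The material was whole plantlets of ecotype Columbia 0, the standard laboratory strain, sequenced as total RNA. Plantlets of 14 days were exposed to 0, 4 or 10 °C or left at 22 °C, with 3 libraries per temperature and a plate of 10 plantlets behind each library. All groups shared the genotype, the growth on agar medium with sucrose and the long-day light cycle at 22 °C before the cold. On the cold's duration the sources differ: sample labels state 24 h throughout, while the series' design text pairs 0 °C with 24 h, 4 °C with 48 h and 10 °C with 72 h. If the design text holds, temperature and duration cannot be told apart.

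Most plant genes carry introns that the spliceosome removes from the primary transcript, and the same gene can give several mature transcripts when an intron is left in, when an exon is skipped or when a neighbouring splice site is used. In plants intron retention is the most common of these, and temperature is known to shift splice-site choice in many genes, among them genes of the circadian clock. A switch can change the protein, or only an untranslated region (UTR), which does not alter the protein.

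In 11 switching genes the leading transcripts differ at a pair of splice acceptors 3 nucleotides (nt) apart. In 9 of these pairs the models also differ elsewhere. These sites are shown because the same order recurred among them. The sequences, 5′ to 3′ on the gene's strand, were read from the RefSeq assembly TAIR10.1, and capitals mark the 3 bases between the acceptors, which are part of the exon when the upstream acceptor is used. All 11 read NAGNAG over the last 3 lower-case bases before the capitals and the capitals themselves.
RSH1, chr4:988604-988630, plus strand: tcattattttagCAGttacggattgtt
AT4G15430, chr4:8831112-8831138, plus strand: ttcgagccaaagCAGgaagccatgatc
WRKY11, chr4:15290447-15290473, minus strand: tttttaatgaagCAGgaaaaatcggat
AT1G67950, chr1:25479364-25479390, minus strand: tcctctgtgtagCAGgaacattcgttt
AT1G71240, chr1:26856075-26856101, plus strand: accctttataagCAGgatgaatggaat
AT1G28530, chr1:10034710-10034736, minus strand: atttggtatcagCAGgtttctacatcc
MAP3KA, chr1:19990303-19990329, plus strand: tttcttctttagCAGcctacaagggaa
GPS1, chr2:14579322-14579348, plus strand: gtgatgttttagTAGggttacgtttgc
FAB1A, chr4:16036491-16036517, minus strand: tttcgtgattagTAGtggcaggagtga
AT4G01330, chr4:552719-552745, plus strand: aatatattgtagCAGgaacgacgagcc
AT2G39920, chr2:16663355-16663381, minus strand: attatcttatagCAGggaagatacaag

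Larger stretches that set the 2 leading transcripts apart inside the coding sequence are shown for 4 further genes, since their shares are described below. In XBAT35 capitals mark a 72-nt exon that the 22 °C transcript holds and the 0 °C transcript lacks. In THO2 and AGO1 they mark 50 and 6 nt between alternative acceptors. In AT5G24620 they mark an 82-nt intron that the 0 °C transcript retains.
XBAT35, chr3:8323087-8323182, plus strand: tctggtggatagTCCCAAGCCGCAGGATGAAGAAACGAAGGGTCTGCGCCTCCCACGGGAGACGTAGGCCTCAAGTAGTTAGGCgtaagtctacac
THO2, chr1:8755115-8755188, plus strand: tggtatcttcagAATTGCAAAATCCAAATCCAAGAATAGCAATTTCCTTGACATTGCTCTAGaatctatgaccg
AGO1, chr1:17890632-17890661, minus strand: ctaacatgttagAATCAGgtatattccggt
AT5G24620, chr5:8431216-8431321, plus strand: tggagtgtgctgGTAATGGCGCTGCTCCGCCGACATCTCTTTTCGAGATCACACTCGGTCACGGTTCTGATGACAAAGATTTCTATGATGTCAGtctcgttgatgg

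The starts of retained introns are shown for 4 genes in which the spliced transcript uses the flanking exons as coding sequence. The 12 lower-case bases end the exon and the 12 capitals begin the intron, which is left in the 0 °C transcript of MC3 (at 2 places), AT5G64250 and HYH and in the 22 °C transcript of TPPI.
MC3, 87-nt intron, chr5:25696849-25696872, plus strand: ggttacactcctGTATGCTTCCAT
MC3, 68-nt intron, chr5:25697110-25697133, plus strand: gatgcatccgcgGTAAGTTAATAA
AT5G64250, 73-nt intron, chr5:25698805-25698828, minus strand: tgtcctgattggGTAAATTGCAAC
HYH, 73-nt intron, chr3:6024023-6024046, plus strand: agcacaaaactgGTAGGTGTTGAA
TPPI, 129-nt intron, chr5:3160078-3160101, plus strand: gatccatccgagGCAAGTCTTAAT

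Each library held between 32870040 and 41683299 estimated counts. Leaf markers were abundant in every library (RBCS1A between 11228 and 17784 CPM, counts scaled to library size), and the 3 seed and 4 floral markers stayed below 3 CPM. Root markers were present, and their summed level lay between 20.1 and 20.8 CPM at 0 °C, 29.9 and 35.6 at 4 °C, 108 and 116 at 10 °C, and 43.9 and 49.4 at 22 °C. Their part in the shares described here was not tested. In whole plantlets a tissue-specific form can gain share when its cells are more numerous or when they hold more of its RNA, and these cannot be told apart. Nothing used here says that counting respected strand. Of the 159 genes 48 overlap a gene on the opposite strand, and in 11 the stretch that sets the 2 transcripts apart lies over an exon of another gene, on the opposite strand in 10 of them.

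Across the 159 genes the 0 °C transcript held a median of 62.9% of its gene's counts for 0 °C, 54.6% for 4 °C, 43.7% for 10 °C and 26.5% for 22 °C. The 22 °C transcript took the opposite course, with medians of 31.6%, 37.6%, 50.3% and 66.5% at the same temperatures. In the 91 genes with exactly 2 transcripts this follows by arithmetic, since one share is the remainder of the other. The gain of the 0 °C transcript between 22 and 0 °C had a median of 34.4 percentage points. It reached at least 30 points in 98 genes and at least 50 points in 30. Over the genes the median SD of this share among 3 libraries was 7.56 points at 0 °C and 5.89 points at 22 °C.

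The libraries at 4 and 10 °C played no part in choosing the genes. At 4 °C the 0 °C transcript led in 114 of the 159 genes, the 22 °C transcript in 41 and another transcript in 4. At 10 °C the 0 °C transcript led in 63, the 22 °C transcript in 91 and another in 5. Across both, 59 genes had the 0 °C transcript in front at both 4 and 10 °C, 53 had it in front at 4 °C with the 22 °C transcript in front at 10 °C, and 37 had the 22 °C transcript in front at both. In 81 genes the mean share of the 0 °C transcript stepped down at each warmer temperature.

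**Figure D1:**
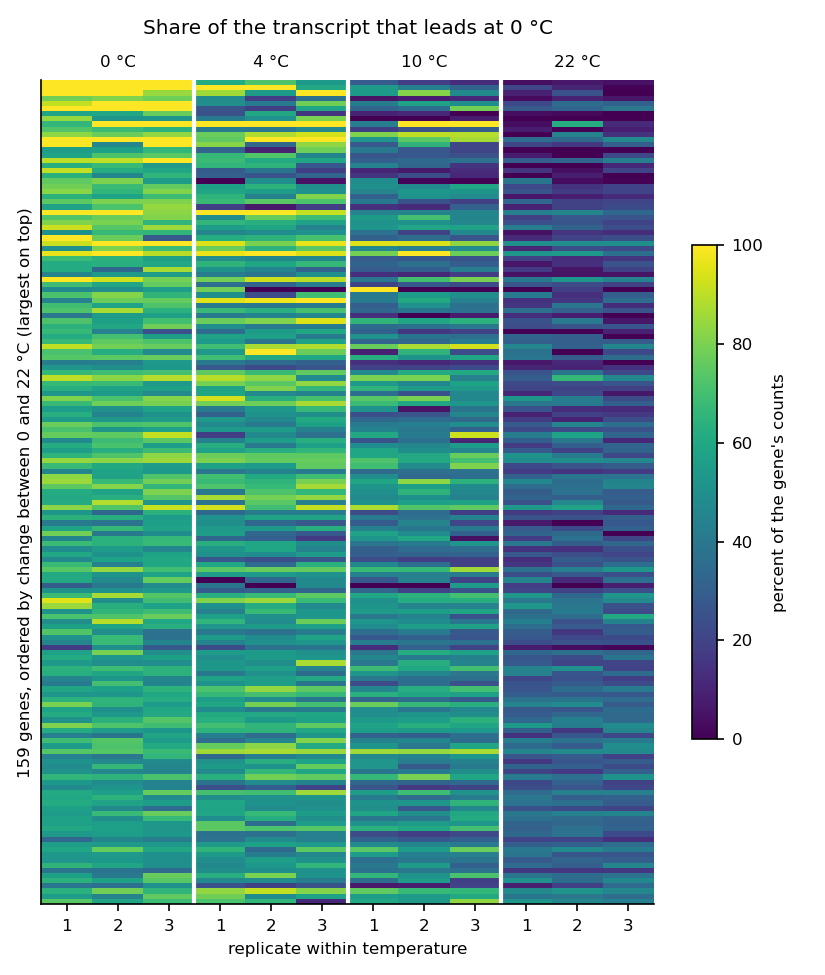
Share of the 0 °C transcript (colour, percent of the gene's estimated counts) in each of 12 libraries (columns, 3 per temperature) for the 159 switching genes (rows, ordered by the change between 0 and 22 °C). The median share was 62.9% for 0 °C, 54.6% for 4 °C, 43.7% for 10 °C and 26.5% for 22 °C.

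MC3 (AT5G64240), a metacaspase, which is a cysteine protease of plants, showed the largest change of share. Its 0 °C transcript held 100% of the counts in all 3 libraries at 0 °C, 61.4, 72.2 and 53.5% at 4 °C, 28.8, 18.0 and 13.2% at 10 °C, and 4.3, 6.8 and 5.0% at 22 °C. The libraries of each temperature stood apart from those of every other. Both introns of the sequences shown above stay in this transcript, and its annotated coding sequence is 918 nt, against 1089 nt in the 22 °C transcript. The level of the gene as a whole was 10.5 ± 3.03 CPM with 0 °C and 49.5 ± 2.01 CPM with 22 °C (SD, n = 3 each).

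AT5G64250, annotated as an aldolase-type TIM barrel protein, is the neighbour of MC3 on the other strand, and the 3′ ends of the pair overlap. It switched as well. Its 0 °C transcript held 78.2, 81.1 and 77.8% of the counts at 0 °C, 48.4, 18.0 and 37.4% at 4 °C, 5.4, 7.5 and 11.4% at 10 °C, and 2.9, 9.8 and 6.2% at 22 °C. The libraries at 10 and 22 °C overlapped, and both groups lay below all libraries at 4 °C, which lay below all at 0 °C. The gene measured 55.3 ± 7.12 CPM in libraries at 0 °C, 26.4 ± 6.75 CPM in those at 4 °C, 13.2 ± 4.23 CPM in those at 10 °C and 28.6 ± 2.87 CPM in those at 22 °C (SD, n = 3 each).

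Another 2 genes had the 22 °C transcript listed at 0 in every library at 0 °C. An estimate of 0 from counts split between similar transcripts need not mean that the RNA was absent. In AT3G24740, a DUF1644 protein, the forms differ by a 78-nt intron of the 3′ UTR, and the retaining form held 100% in each library at 0 °C, 100, 100 and 59.8% at 4 °C, 54.1, 43.1 and 32.2% at 10 °C, and 21.4, 10.5 and 0.91% at 22 °C. Only the lowest library at 4 °C came near those at 10 °C. In AT1G53450 a 259-nt intron of the 3′ UTR overlaps the gene AT1G53440 on the opposite strand, and if strand was ignored in counting, reads over it cannot be assigned to one of them.

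The 12 largest changes included genes of RNA handling, membrane lipids and signalling, and their libraries were not equally tight. THO2, a subunit of the THO complex that couples transcription to mRNA export, had its 0 °C transcript at 100% in all libraries at 0 °C, at 26.0, 19.0 and 58.9% at 4 °C, at 32.7, 36.3 and 78.6% at 10 °C, and at 28.0, 32.7 and 39.8% at 22 °C. The libraries at 4 and 10 °C overlapped each other and those at 22 °C. PLDDELTA, phospholipase D delta, which releases phosphatidic acid from membrane lipids, differs between its forms by a 139-nt intron of the coding region. The retaining form held 58.5, 60 and 76.9% at 0 °C, 24.8, 59.9 and 15.6% at 4 °C, 9.8, 11.2 and 0.0% at 10 °C, and 3.6, 2.3 and 0.0% at 22 °C. At 4 °C 1 library matched those at 0 °C while the other 2 lay between.

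AT4G36980 encodes a protein annotated as CLK4-associating and rich in serine and arginine, a composition found in splicing factors. Here the 22 °C transcript is the one with the extra intron, of 177 nt. The 0 °C transcript held 84.1, 52.2 and 52.6% at 0 °C, 41.5, 50.7 and 80.0% at 4 °C, 0.0, 0.36 and 8.0% at 10 °C, and 0.0% in all libraries at 22 °C. The libraries at 0 and 4 °C overlapped, and all of them lay above those at 10 and 22 °C. AT4G00500, an alpha/beta-hydrolase, and LOV1, a disease resistance protein with an NB-ARC domain, differ between their forms in introns of the 5′ UTR and not in the coding sequence. Their shares at 0 and 22 °C were 94.8 ± 9.0 and 11.8 ± 12.9% for AT4G00500 and 88.7 ± 19.5 and 25.8 ± 31.6% for LOV1 (SD, n = 3 each). AT1G12650, an RRP36-like protein of ribosomal RNA maturation, kept its 0 °C transcript at 86.3 ± 8.2% at 4 °C and 86.7 ± 5.3% at 10 °C, against 19.9 ± 22.8% at 22 °C.

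At the other end of the set, ATPI4K ALPHA gained 20.0 points, AT4G01330 gained 20.4 and AT3G59470 gained 20.7. Among genes with a change of main transcript that stayed just under the 20 points, AT2G32710 gained 19.1, AT2G35830 also gained 19.1 and AT5G64220 gained 19.0. In all, 295 genes changed their main transcript, of which 114 gained less than 20 points and 22 gained at least 20 points with overlapping libraries.

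Every leading transcript had a model of the same name in the RefSeq annotation of TAIR10.1, so the kind of change could be read for all 159 genes. An intron retained in one form and spliced in the other set the pair apart in 81 genes (50.9%), against 39% of 4021 other genes considered, for which the 2 most abundant transcripts were compared. Alternative acceptors occurred in 37 genes (23.3%, against 26.8% of the others) and alternative donors in 19 (11.95%, against 15.4%). An exon was skipped in one form in 10 (6.29%, against 7.36%). In 8 of those 10 the 22 °C transcript held the exon. Other intron differences, which can cover several introns of a pair, occurred in 24 genes (15.1%, against 19.9% of the others). Exactly 1 event was listed for 143 pairs, and in 15 of them it was of this last, mixed kind. The first or last base of the transcripts also differed in 98 pairs, so their estimated counts may rest on the ends as well.

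The retained intron was more often in the cold form. Of 79 genes with a retained intron on one side only, 60 (75.9%) carried it in the 0 °C transcript and 19 in the 22 °C transcript. Among 1554 other genes of this kind the retaining form had the higher share at 0 °C in 895 (57.6%). For these others any difference in mean share counted, however small, while the 79 genes had met the threshold of 20 percentage points. The 65 introns retained in 0 °C transcripts had a median length of 106 nt and a median GC content of 35.7%, close to the 104 nt and 33.3% of 1253 other introns of the same genes. Of the 65 introns 22 lay in the 5′ UTR, 29 in the coding part and 14 in the 3′ UTR.

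The coding sequence was the same in both forms in 73 genes (45.9%), against 30.7% of the other genes, and the differences then lay in the 5′ UTR in 56 and in the 3′ UTR in 17. It differed in 85. A stop codon more than 50 nt upstream of the last exon junction, a feature known to mark transcripts for nonsense-mediated decay, was found in the 0 °C transcript alone in 7 genes, in the 22 °C transcript alone in 11 and in both in 3.

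**Figure D2:**
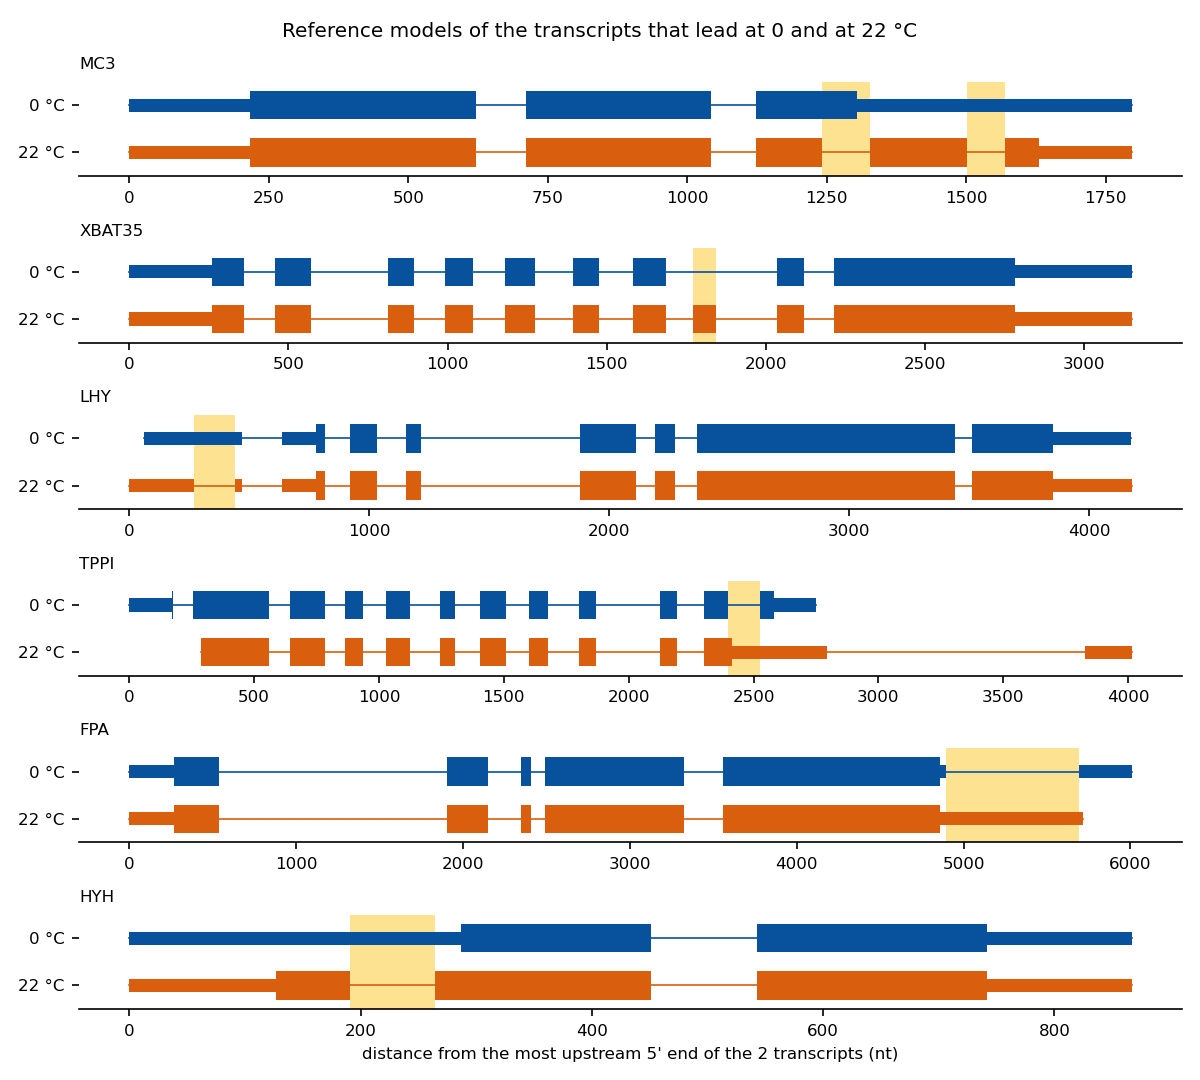
Reference models of the 0 °C transcript (blue, upper) and the 22 °C transcript (orange, lower) of 6 switching genes, with distance in nt from the most upstream 5′ end on the x axis, thick boxes for coding sequence, thin boxes for UTRs and yellow for the retained intron or skipped exon. The 0 °C transcript retains introns of 87 and 68 nt in MC3, of 170 nt in LHY and of 73 nt in HYH. The 22 °C transcript retains an intron of 129 nt in TPPI and of 798 nt in FPA. The 0 °C transcript of XBAT35 lacks an exon of 72 nt. The models of LHY, TPPI and FPA also differ at their ends.

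Of the 11 tandem acceptors 3 nt apart, 10 used the upstream site in the 0 °C transcript, which leaves the exon 3 nt longer. The group was singled out after its values had been seen. The exception was AT2G39920, an acid phosphatase, where the upstream form held 14.9 ± 20.8% at 0 °C and 44.5 ± 8.8% at 22 °C (SD, n = 3 each). Among 297 other genes considered whose 2 most abundant transcripts differ at such a site, the upstream form was higher at 0 °C in 183 (61.6%), with a median gain of 1.57 points. For them any difference in mean share counted, without the threshold of 20 percentage points that the switching genes had met. At 4 °C the upstream form was higher than at 10 °C in all 11 switching genes, by a median of 14.2 points, and in 145 (48.8%) of the 297 others. Of the 11 genes 2 passed the test of 4 against 10 °C described below. In AT1G28530 and AT1G67950 the 2 models differ in length by the 3 nt alone, while the other 9 pairs also differ elsewhere.

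RSH1, the homologue of bacterial enzymes that make and degrade the alarmone ppGpp, had the transcript with the upstream acceptor at 67.8, 77.8 and 79.4% of counts at 0 °C, 79.1, 77.8 and 87.1% at 4 °C, 68.1, 60 and 53.1% at 10 °C, and 39.5, 41.1 and 30.4% at 22 °C. All libraries at 4 °C stood above those at 10 °C, which stood above those at 22 °C. In WRKY11, a transcription factor of defence responses, the share was 60.7 ± 5.0% for 0 °C, 57.0 ± 5.4% for 4 °C, 41.3 ± 2.4% for 10 °C and 27.2 ± 4.2% for 22 °C (SD, n = 3 each). All its libraries at 4 °C lay above those at 10 °C. AT4G15430, an early-responsive to dehydration family protein, had 72.7, 68.2 and 64.0% at 0 °C, 41.3, 39.8 and 47.2% at 4 °C, 18.4, 25.7 and 29.5% at 10 °C, and 7.6, 0.0 and 8.5% at 22 °C, with no overlap between any 2 temperatures. The share of the upstream form of MAP3KA, a MAP kinase kinase kinase, was 62.9 ± 11.1% for 0 °C, 58.3 ± 4.3% for 4 °C, 58.0 ± 5.5% for 10 °C and 36.9 ± 5.5% for 22 °C (SD, n = 3 each). GPS1 is a geranyl diphosphate synthase and FAB1A a kinase that makes phosphatidylinositol 3,5-bisphosphate. Each had its own highest mean share of the upstream form at 0 °C, with lower means close to each other at the warmer temperatures. GPS1 gave 55.0 ± 7.1% for 0 °C, 26.0 ± 1.8% for 4 °C, 20.2 ± 2.8% for 10 °C and 22.8 ± 8.7% for 22 °C (SD, n = 3 each). FAB1A gave 48.0 ± 3.4%, 24.8 ± 4.9%, 21.2 ± 4.9% and 23.9 ± 2.5% in the same order of temperatures (SD, n = 3 each). The FAB1A forms also differ at acceptors 12 nt apart and by a 304-nt intron of the 5′ UTR, retained in the 22 °C transcript. That intron lies over AT4G08775 on the opposite strand.

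**Figure D3:**
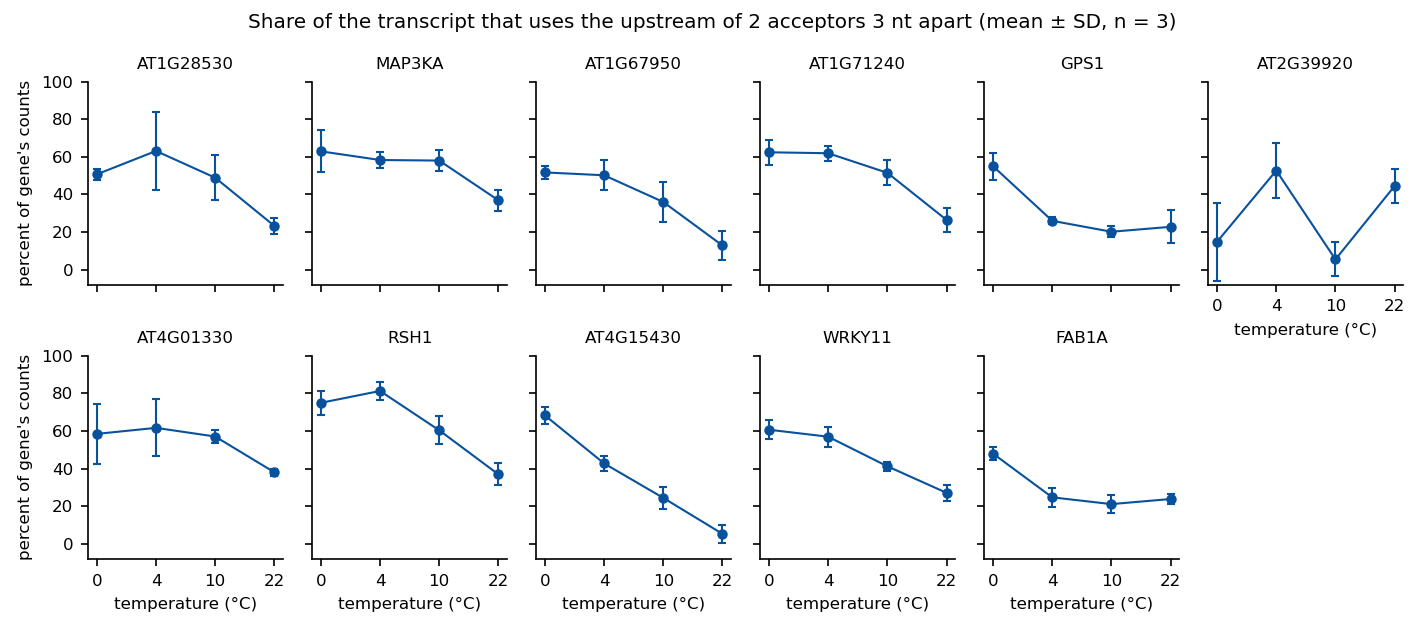
Share of the transcript that uses the upstream of 2 acceptors 3 nt apart (y axis, percent of the gene's estimated counts, mean ± SD of 3 libraries) at 0, 4, 10 and 22 °C (x axis) in 11 switching genes. It was higher at 0 than at 22 °C in 10 of them, the exception being AT2G39920.

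The comparison of 4 with 10 °C asked whether the forms that led at 0 °C also differed between the milder temperatures. Transcript usage was tested for 4532 genes with the gene-level F test of edgeR's diffSpliceDGE and Benjamini-Hochberg adjustment over all of them. This test asks whether the usage of any transcript of a gene differs. Its p is printed below beside the points of the 0 °C transcript but does not test those points alone. Of the switching genes 68 have more than 2 transcripts. All 159 switching genes were tested and 39 (24.5%) were called at a false discovery rate of 0.05. In all 39 the share of the 0 °C transcript was higher at 4 °C. Over all genes tested 8.27% were called. For 6.77% the call came with a higher share at 4 °C of the transcript that had gained most at 0 °C, and for 1.5% with a lower share. The genes tested include some with fewer counts than a switching gene needed, so these percentages are not matched for counts. At an unadjusted p under 0.05 the 0 °C transcript was higher at 4 °C in 67 switching genes and lower in 2. With limma's voom and diffSplice 50 were higher and 0 lower. Direction in these counts was read from the same mean shares, so voom did not measure it anew. The share of all genes called in these settings is not given here, so the counts have no background beside them.

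In the 39 called genes the 0 °C transcript held a median of 20.5 points more at 4 than at 10 °C (range 8.09 to 54.6). Over all 159 the median was 11 points, and 137 (86.2%) had the higher mean at 4 °C, against 60.9% of the 4056 other genes considered, whose median was 0.45 points. All 3 libraries at 4 °C stood above all 3 at 10 °C in 66 genes (41.5%, against 16.8% of the 4215 considered), and below them in 1, PHS1, a dual-specificity phosphatase (background 4.77%). The groups at 0 °C and 22 °C took part in choosing the transcripts followed here, while those at 4 and 10 °C did not. With the libraries at 4 and 10 °C alone, which leaves out those that chose the genes, 41 switching genes were called, 40 with the 0 °C transcript higher at 4 °C and 1 lower. The share of all genes called in that fit is not given here. By Simes' method in place of the F test 13 switching genes were called, all with the 0 °C transcript higher at 4 °C. Direction in both settings again rests on the same mean shares.

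**Figure D4:**
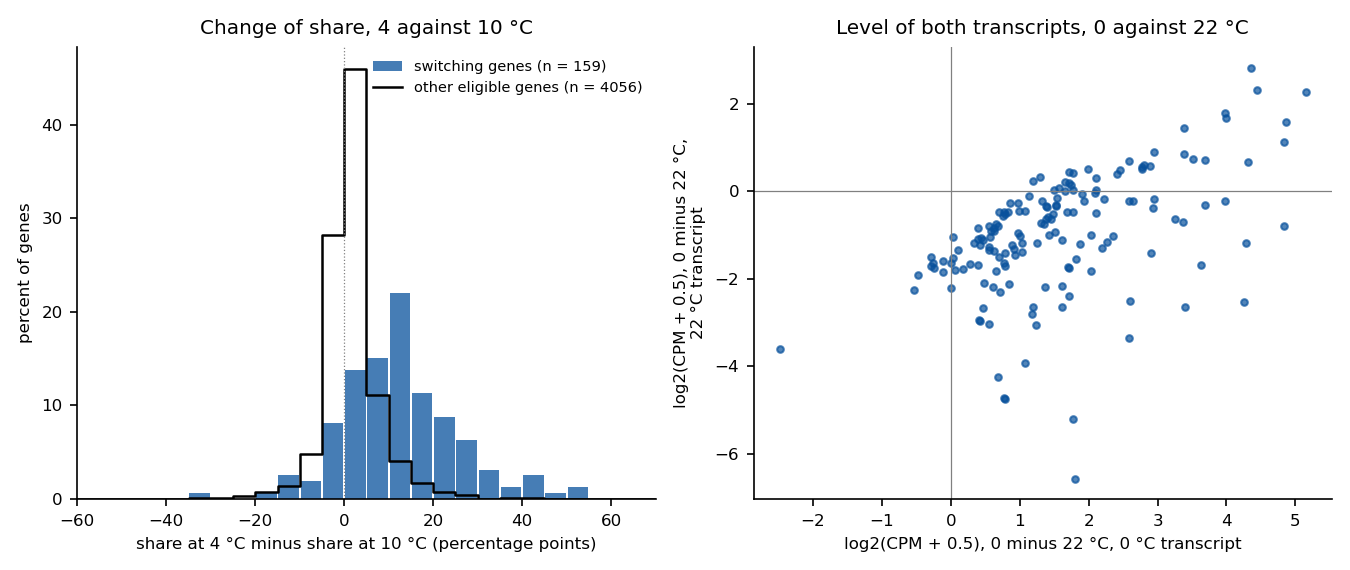
Left, share of the 0 °C transcript at 4 °C minus that at 10 °C (x axis, percentage points) for the 159 switching genes (bars) and, for the transcript that gained most at 0 °C, the 4056 other genes considered (line), as percent of genes, with medians of 11 and 0.45 points. Right, change of level between 0 and 22 °C of the 0 °C transcript (x axis) and the 22 °C transcript (y axis) of each switching gene in log2(CPM + 0.5), where 115 genes have the first higher and the second lower.

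The strongest calls fell on enzymes and regulators of several kinds. CGL1 encodes the N-acetylglucosaminyltransferase that starts complex N-glycans. Its 0 °C transcript, with a 74-nt intron of the 3′ UTR retained, held 60.3, 63.2 and 73.1% at 0 °C, 86.8, 79.0 and 83.7% at 4 °C, 47.0, 50.1 and 43.9% at 10 °C, and 32.3, 30.1 and 31.2% at 22 °C. All libraries at 4 °C lay above those of the other temperatures (4 against 10 °C, 36.2 points, edgeR adjusted p = 2.13e-06). TPPI, a trehalose-6-phosphate phosphatase, had its 0 °C transcript at 74.9, 80.3 and 80.8% at 0 °C, 68.0, 74.6 and 71.7% at 4 °C, 40.3, 25.3 and 18.9% at 10 °C, and 33.2, 19.2 and 20.8% at 22 °C. The libraries fell into a high pair of temperatures, 0 and 4 °C, and a low pair, 10 and 22 °C (43.2 points, edgeR adjusted p = 7.57e-06). Beside the 129-nt intron, both ends of the TPPI models differ. The 22 °C model starts 286 nt downstream of the 0 °C model and has a further exon beyond the 3′ end of the 0 °C model. The part of these stretches in the share was not tested. The gene level of TPPI was 82.5 ± 2.46 CPM for 0 °C, 37.5 ± 1.91 CPM for 4 °C, 8.1 ± 0.612 CPM for 10 °C and 7.28 ± 0.847 CPM for 22 °C (SD, n = 3 each).

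CPR1, an F-box protein that limits the amount of immune receptors, had its 0 °C transcript, which retains a 330-nt intron of the 3′ UTR, at 59.6, 51.2 and 58.2% of counts at 0 °C, 50.2, 48.7 and 55.2% at 4 °C, 29.8, 31.3 and 31.4% at 10 °C, and 28.0, 23.5 and 20.8% at 22 °C. Its libraries at 4 °C all lay above those at 10 °C (20.5 points, edgeR adjusted p = 0.000124). In AT1G22750, which encodes an uncharacterized protein, the share of the 0 °C transcript was 37.2 ± 1.9% for 0 °C, 49.8 ± 0.65% for 4 °C, 38.2 ± 1.5% for 10 °C and 16.2% in each library for 22 °C (SD, n = 3 each), highest at 4 °C (11.6 points over 10 °C, edgeR adjusted p = 3.21e-05). AT2G41705, a CrcB family protein, also peaked at 4 °C, where its 0 °C transcript held 97.7 ± 2.2%, against 48.4 ± 10.8% at 10 °C (edgeR adjusted p = 8.56e-05), but the stretch concerned overlaps AT2G09300 on the opposite strand. RSH1, shown above, differed by 20.9 points (edgeR adjusted p = 0.000167), MC3 by 42.4 points (edgeR adjusted p = 0.000715) and WRKY11 by 15.6 points (edgeR adjusted p = 0.00328).

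XBAT35, a ubiquitin ligase with a RING domain and ankyrin repeats, was one of the 5 most abundant switching genes. The form without the 72-nt exon held 52.0, 53.3 and 50.1% at 0 °C, 49.2, 56.0 and 51.1% at 4 °C, 36.3, 40.5 and 38.3% at 10 °C, and 28.3, 32.5 and 30.4% at 22 °C. The libraries at 0 and 4 °C overlapped, and all of them exceeded those at 10 °C (13.7 points between 4 and 10 °C, edgeR adjusted p = 0.000173), which exceeded those at 22 °C. AT1G19400, annotated as an erythronate-4-phosphate dehydrogenase family protein, had its 0 °C transcript, which retains a 381-nt intron of the 5′ UTR, at 60.8, 51.8 and 58.1% at 0 °C, 55.1, 54.0 and 51.2% at 4 °C, 44.1, 43.7 and 41.0% at 10 °C, and 23.9, 27.9 and 24.6% at 22 °C. The libraries at 4 °C lay above those at 10 °C (10.5 points, edgeR adjusted p = 0.00416), and those at 0 and 4 °C overlapped. The call of AT1G19400 ended with Simes' method, adjusted p = 0.0878.

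The calls of AT5G64250, AT4G36980 and AT3G59470 ended under several alternatives. AT5G64250 differed by 26.5 points between 4 and 10 °C (edgeR adjusted p = 0.0091), which became adjusted p = 0.107 with the libraries at 4 and 10 °C alone, 0.0776 with voom and 0.0517 without the first library at 10 °C. AT4G36980 differed by 54.6 points, the widest gap among the 39 (edgeR adjusted p = 0.0249), and 6 alternatives put its adjusted p between 0.0611 and 0.158. AT3G59470, of the FAR1 family, differed by 15.3 points (edgeR adjusted p = 0.0216), and its call ended in 5 alternatives, at adjusted p between 0.0599 and 0.713.

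**Figure D5:**
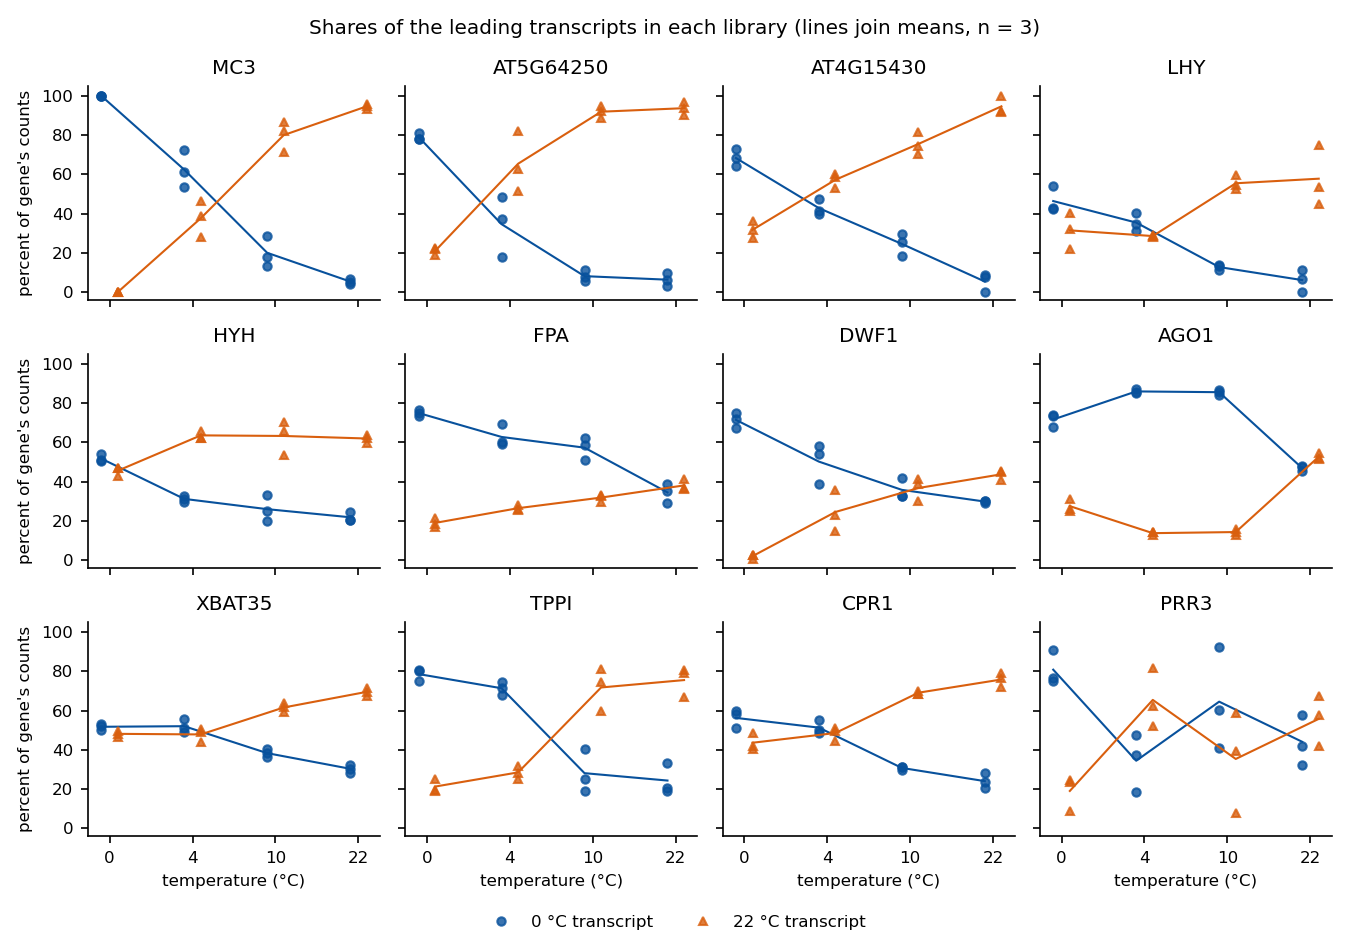
Shares of the 0 °C transcript (blue circles) and the 22 °C transcript (orange triangles) in each library (y axis, percent of the gene's estimated counts) at 0, 4, 10 and 22 °C (x axis) for 12 switching genes, with lines through the means of 3 libraries. In MC3 the 0 °C transcript stood at 100% at 0 °C and 5.3% at 22 °C, whereas in AGO1 it was highest at 4 and 10 °C and in PRR3 its mean was lower at 4 than at 10 °C.

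Of the other abundant genes, DWF1, a sterol reductase of brassinosteroid synthesis, had a 0 °C transcript without a 94-nt intron of the 5′ UTR. It held 67.4, 75.1 and 72.1% at 0 °C, 54.0, 38.8 and 58.0% at 4 °C, 32.8, 32.9 and 41.9% at 10 °C, and 30.4, 30.2 and 29.1% at 22 °C. The ranges at 4 and 10 °C overlapped, and the difference of 14.4 points was not called (edgeR adjusted p = 0.142). AGO1, the argonaute protein that carries microRNAs, used the downstream acceptor 6 nt further on in its 0 °C transcript. It reached 73.8, 73.5 and 67.9% at 0 °C, 85.7, 87.3 and 85.1% at 4 °C, 85.8, 84.1 and 87.0% at 10 °C, and 45.5, 47.6 and 47.8% at 22 °C. Here all cold libraries lay above those at 22 °C, and those at 0 °C were the lowest of the cold ones. The kinase gene AT5G63370 gave its 0 °C transcript 74.3 ± 5.3% for 0 °C, 57.0 ± 7.3% for 4 °C, 52.0 ± 6.5% for 10 °C and 19.1 ± 4.0% for 22 °C (SD, n = 3 each), and 1 of its 2 differing introns overlaps AT5G63375 on the opposite strand.

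Of 9 lists of genes, 4 held a switching gene. These were 2 of 10 clock genes considered, 1 of 9 of cold signalling, 1 of 6 of light signalling and 1 of 5 of flowering time, beside 3.77% of all loci considered, and with so few genes these shares say little about the lists. LHY, a morning-phased MYB factor of the clock, had its 0 °C transcript, which retains a 170-nt intron of the 5′ UTR, at 42.2, 42.7 and 54.2% of counts at 0 °C, 40.3, 34.9 and 31.0% at 4 °C, 13.5, 11 and 13.7% at 10 °C, and 6.9, 11.4 and 0.0% at 22 °C. The libraries at 0 °C stood above those at 4 °C, and these stood above those at 10 °C (22.7 points between 4 and 10 °C, edgeR adjusted p = 0.000979). PRR3, a pseudo-response regulator of the clock, had its 0 °C transcript at 76.5, 75.3 and 90.9% at 0 °C, 18.4, 47.6 and 37.5% at 4 °C, 60.4, 41.1 and 92.3% at 10 °C, and 42.1, 57.9 and 32.5% at 22 °C. Its libraries at 4, 10 and 22 °C overlapped, and the difference of -30.1 points between 4 and 10 °C was not called (edgeR adjusted p = 0.167).

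HYH, a bZIP factor of light signalling, had the transcript that retains its 73-nt intron at 50.9, 50.4 and 54.1% at 0 °C, 29.6, 31.4 and 32.8% at 4 °C, 33, 20.1 and 25% at 10 °C, and 20.7, 20.5 and 24.5% at 22 °C. The libraries at 0 °C stood above all others, and those at 4 and 10 °C overlapped. The annotated coding sequence of the retaining form is 363 nt, against 450 nt in the 22 °C transcript. FPA, an RNA-binding protein that promotes flowering and acts on 3′ ends of transcripts, had its 0 °C transcript at 73.5, 74.8 and 76.8% at 0 °C, 69.2, 60.2 and 59.1% at 4 °C, 62.4, 51.0 and 58.7% at 10 °C, and 39.1, 29.1 and 35.5% at 22 °C. The ranges at 4 and 10 °C overlapped, and the 798-nt intron concerned, in the 3′ UTR, lies over AT2G09470 on the opposite strand. CAMTA3 (AT2G22300, named SR1 in the reference), a calmodulin-binding transcription activator of cold-induced genes, had a 0 °C transcript without a 76-nt intron of the 5′ UTR, whose share was 65.1 ± 9.7% for 0 °C, 58.1 ± 21.3% for 4 °C, 68.9 ± 12.1% for 10 °C and 43.1 ± 3.8% for 22 °C (SD, n = 3 each).

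Of 20 SR proteins, which help to choose splice sites, 13 had the transcripts and counts to be considered, and of 28 other splicing and RNA-binding factors 17 had. None of them switched, beside 3.77% of all loci considered, and lists of this size could hold none at that share. At the gene level 12 of 19 SR genes tested were higher and 5 lower at 0 than at 22 °C (median log2 0.75), and 22 of 28 others were higher and 4 lower (median log2 0.62; edgeR quasi-likelihood test, Benjamini-Hochberg, 0.05). Over all 21293 genes tested 35.5% were called higher and 38.8% lower. Scaling by total counts alone put the 2 lists together at 27 higher and 14 lower, against 34 and 9. The 9 lower calls became 5 without the first or the third library at 0 °C or the third at 22 °C. Of the remaining lists, the Calvin cycle and light harvesting had 9 genes considered and starch and sucrose metabolism 4, with no switching gene among them, and no heat shock factor could be considered.

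The 4 members with the highest share of the 0 °C transcript at 10 °C were AT5G24620 with 91.0 ± 6.6%, AT1G12650 with 86.7 ± 5.3%, AT1G04945 with 85.8 ± 8.3% and AGO1 with 85.6 ± 1.5% (SD, n = 3 each). In AT5G24620, a thaumatin family protein related to pathogenesis proteins, the transcript that retains the 82-nt intron held 97.3 ± 4.6% at 0 °C and 90.4 ± 9.1% at 4 °C, against 49.7 ± 0.29% at 22 °C, so that both forms were near parity at 22 °C. AT1G04945, a HIT-type zinc finger protein, overlaps AT1G04940 on the same strand over the stretch concerned. Among the 4 with the lowest share at 4 °C, Hop3, a co-chaperone that links HSP70 and HSP90, had the transcript that retains a 74-nt intron at 71.2 ± 13.3% of counts for 0 °C, 14.7 ± 6.7% for 4 °C, 19.2 ± 10.2% for 10 °C and 17.2 ± 6.7% for 22 °C (SD, n = 3 each). AT2G26810, a putative methyltransferase, and FAB1A were likewise higher at 0 °C than at the other temperatures in their mean. GSL03, a glucan synthase, had its 0 °C transcript at 75.6, 80.1 and 55.4% at 0 °C, 0.1, 49.9 and 4.8% at 4 °C, 48.8, 0.85 and 0.61% at 10 °C, and 39.1, 3.3 and 1.1% at 22 °C. All its libraries at 0 °C lay above the others, and those at 4, 10 and 22 °C overlapped.

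Called genes were spread over the kinds of change. Of the 60 genes with an intron retained in the 0 °C transcript alone 18 were called between 4 and 10 °C, of the 19 with one in the 22 °C transcript alone 4, and of the 78 with no retained intron 17, each with the 0 °C transcript higher at 4 °C. The median difference between 4 and 10 °C was 12.3 points in the first class, 8.89 in the second and 10.7 in the third. These classes were not tested against each other. Among switching genes with a changed coding sequence 25 of 85 were called, and among those with the same coding sequence 14 of 73. The share of other genes called in each of these classes is not given here, so the split cannot be read as a trait of the switching genes.

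Shares at 4 and 10 °C beside those at 22 °C use the same libraries at 22 °C as the choice of genes, so the values are set side by side without a test. The 0 °C transcript was above its mean at 22 °C by a median of 28.3 points at 4 °C, with 156 genes higher, and by 17.5 points at 10 °C, with 147 genes higher.

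A change of share need not come with a change of the gene's level. At 0 against 22 °C the gene level of 76 switching genes was called higher and of 52 lower, 80.5% together, where 74.3% of all genes were called, and 108 of the 159 stayed within 2-fold. The median log2 difference was 0.16 for the 159 genes and -0.07 for all genes. With total counts alone the medians were -0.25 and -0.48, and 53 switching genes were then higher and 79 lower. Measured for each transcript in log2(CPM + 0.5), the 0 °C transcript was higher and the 22 °C transcript lower at 0 °C in 115 genes, both were higher in 34 and both lower in 10. With total counts alone these numbers were 118, 22 and 19. The median log2 difference was 1.38 for the 0 °C transcript and -0.92 for the 22 °C transcript.

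HYH, TPPI, LHY, AT1G19400 and AT4G15430 were among those in which both forms were higher at 0 °C. In HYH the gene level was 124 ± 6.25 CPM for 0 °C and 12.2 ± 0.0995 CPM for 22 °C (SD, n = 3 each), and the log2 difference was 4.36 for the retaining form and 2.83 for the spliced one. In DWF1 the gene was lower at 0 °C, with 222 ± 2.48 CPM against 310 ± 6.08 CPM in libraries at 22 °C (SD, n = 3 each), with log2 differences of 0.78 for the 0 °C transcript and -4.75 for the 22 °C transcript. AT4G01330, a kinase gene near the threshold, had both forms lower, by log2 differences of -2.48 for its 0 °C transcript and -3.60 for its 22 °C transcript.

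Between 4 and 10 °C the gene level of 76 switching genes was higher and of 30 lower (47.8 and 18.9%), where 29.7% of all genes were called higher and 30.3% lower (edgeR quasi-likelihood test, Benjamini-Hochberg, 0.05). The median log2 difference was 0.21 in the 159 genes and -0.02 in all genes. With total counts alone the order turned, with 39 switching genes higher and 57 lower and medians of -0.08 for the 159 genes and -0.31 for all genes. Single genes went from a log2 difference of -1.48 to 2.21, the highest being TPPI (2.21 ± 0.08, SE, edgeR adjusted p = 1.73e-10). HYH rose by 2.06 ± 0.08 (SE, edgeR adjusted p = 4.02e-10) and AT1G19400 by 1.34 ± 0.05 (SE, edgeR adjusted p = 4.06e-10), while MC3 fell by 0.69 ± 0.16 (SE, edgeR adjusted p = 0.0028).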

How the data were processed

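Paired-end reads of 250 bp came from 12 libraries in 4 groups of 3, grouped by the labels. Per the submitters' processing notes the tools were HISAT2 2.2.0, kallisto 0.42.4 and edgeR and the genome TAIR10; their roles are not stated. The authors deposited estimated counts of transcripts (fractional values), and 6 columns of that table match no sample and were not used. A share is a transcript's estimated counts over the sum of its locus, not corrected for length. CPM values of genes were scaled by TMM factors (0.792 to 1.19). Those of the tissue markers, and those that ranked the most abundant genes, were scaled by the total counts of annotated loci alone.

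For tests the counts were rounded. Usage was tested with diffSpliceDGE (edgeR 4.0.16, R 4.3.3) on 10529 transcripts of 4532 genes, and gene levels of 21293 genes with glmQLFit and glmQLFTest, each after filterByExpr in 1 fit of all 12 libraries. limma 3.58.1 and DESeq2 1.42.0 served as alternatives. Standard errors are the absolute log2 fold change over the square root of F and so approximate. Both steps were tested on simulated counts for 4 against 10 °C. The usage step recovered 200 of 200 changes of 25 percentage points with 23 false calls among 4384 genes. The gene step recovered 200 of 200 changes of 2-fold with 13 false calls among 20987 genes. Counts were simulated with a fixed dispersion of 0.01, and usage changes were set only in well-covered genes with 2 transcripts. Uncertainty in assigning reads to similar transcripts was not simulated, so these numbers do not give the recovery in the real data.

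The switching genes, the lists and the alternatives were chosen with earlier results of these data known. Genes named are the 12 largest changes, members of 9 lists, the 5 most abundant, the 6 smallest p of 4 against 10 °C, the 4 highest at 10 °C, the 4 lowest at 4 °C and 3 on each side of the threshold. Of these, 1 gene among the 12 is not reported here. The 11 genes with tandem acceptors and PHS1 were named after their values were seen. Transcripts were matched by name to RefSeq models of TAIR10.1 (99.4% of 10200 matched), and the authors' own models may differ. Replicates were separate plates, with chamber runs unknown, so p-values measure the spread between these libraries. Libraries of a group differed by more than counting noise.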

Additional observations from a re-analysis of the deposited data

Results flagged for a closer look

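Assembled transcripts outside annotated loci, which take no part in the shares above, held 12.1% of a library's counts at 0 °C on average, 11.1% at 4 °C, 9.97% at 10 °C and 11.4% at 22 °C. They are mentioned because they carry signal outside the loci analysed, and forms of the 159 genes that were assembled anew would be missing from the shares. Whether they hold such forms was not tested. Groups of 3 libraries are too small to be searched for outlying libraries.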

How the results depend on the processing

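The number of switching genes was 159 as reported and 98 with a minimum change of 30 points. It lay between 115 and 188 with a change of 10 points, count minimums of 50 and 200, or shares divided by transcript length (156, of which 149 shared with the 159), and between 167 and 187 without each library in turn. Other readings of the rule, added after the data were seen, gave 144 to 171 genes.

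For usage between 4 and 10 °C Simes' method called 141 genes, 13 of them switching, in place of 375 and 39, and all 13 had the 0 °C transcript higher at 4 °C. Without single libraries the genes called numbered 240 to 318, the switching genes called 27 to 33, those higher at 4 °C 27 to 32 and those lower 0 to 1. With the libraries at 4 and 10 °C only, 41 switching genes were called, 40 higher and 1 lower. Of 480 values of named genes under alternatives, 457 kept their side of the threshold, 15 lost the call, 8 gained it and 0 changed direction. A change of direction was looked for only in genes called as reported. In every setting direction was read from the mean shares, which differ only when a library is left out. The other settings could therefore not change it.

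At the gene level, total counts alone gave 39 switching genes higher and 57 lower between 4 and 10 °C, 79 lower between 0 and 22 °C, and 14 splicing factors lower. Without single libraries 5 to 9 splicing factors were lower. With DESeq2 77 switching genes were higher and 27 lower between 4 and 10 °C.

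The labels number the replicates, but same-numbered libraries did not deviate together (correlations between -0.0361 and 0.0541), so the numbers do not pair them. A fit with the replicate number as a block called 314 genes and 33 switching genes in usage, all 33 higher at 4 °C and 0 lower. At the gene level this block gave 12502 genes, with 76 switching genes higher and 29 lower between 4 and 10 °C, 34 splicing factors higher and 8 lower, and 74 switching genes higher and 52 lower between 0 and 22 °C. Among the named genes the block ended the usage call of AT4G36980 (adjusted p = 0.0611). For a result lost under an alternative the cause was not tested. A share rests on as few as 100 counts of a gene, and where forms differ by few bases few reads tell them apart.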
